A study of Mus musculus with 30 samples.

Results

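Nnt encodes nicotinamide nucleotide transhydrogenase, and it is described here with the enzymes of mitochondrial redox defence in mouse liver. The members were a list of 10 genes chosen by symbol: Nnt, Idh2, Prdx3, Prdx5, Txn2, Txnrd2, Glrx2, Gpx1, Gpx4 and Sod2. Only probe sets naming a single gene were used, and where a gene had several, the brightest on average across the 30 arrays stood for it. By this rule 9 of the 10 genes had a value, out of 17097 genes in all, and Prdx5 is not analysed here. Nnt was picked with its difference between drug-treated and vehicle mice already known from an earlier analysis of the same arrays. Its values in the drug groups are therefore a description and carry no test. Its vehicle values entered the same choice. Contrasts of vehicle with healthy mice and within the vehicle mice are therefore given for Nnt without a test as well. The other 8 measured members were listed for their function.

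The inner mitochondrial membrane holds Nnt, which uses the proton gradient to make NADPH from NADH in the matrix. NADPH in turn feeds thioredoxin reductase and glutathione reductase, which keep the peroxiredoxins and glutathione peroxidases able to remove hydrogen peroxide and lipid peroxides. Hepatocytes are rich in mitochondria and oxidise fat there, so this system is one of the main peroxide sinks of the liver. The widely used substrain C57BL/6J carries a deletion in Nnt that C57BL/6N does not, but the labels name no strain or substrain for these mice, and genotype was not tested.

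The study measured RNA from liver tissue outside tumours, 1 array per mouse, in 5 groups. The healthy group was 5 mice on chow whose treatment label reads vehicle. All the other mice ate a choline-deficient high-fat diet (CD-HFD), which causes fatty liver disease and, in some mice, hepatocellular carcinoma (HCC): 5 vehicle mice without HCC, 4 vehicle mice with HCC and fibrosis, 10 mice given sulindac and 6 given aspirin with clopidogrel. Sulindac and aspirin inhibit cyclooxygenases and clopidogrel blocks a platelet ADP receptor, and the drugs were given prophylactically. The labels used here give no sex, age or batch for these groups, and the diet and the chow group cannot be told apart from anything else that differed between them. All drug-treated mice carry lower animal numbers than every healthy and vehicle mouse. A drug difference from vehicle or healthy mice therefore cannot be told apart from anything else that differed between these separately numbered sets. Below, rose and fell describe differences between groups only. All p-values below set a difference between group means against the spread between mice, pooled over the groups fitted.

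The arrays correlated with each other at 0.974 to 0.996 over genes, and hepatocyte markers lay in a narrow range, with a mean log2 intensity of 12.44 to 12.71 over 6 of 6 genes. Alb, the hepatocyte product albumin, spanned 13.41 to 13.68. Hlth_1798 and Hlth_1807 were nearer in overall profile to the vehicle mice than to the healthy mice (root mean square log2 distances of 0.419 against 0.549 and 0.434 against 0.526), and Veh_low_794 and Veh_low_1819 were nearer to the healthy mice (0.32 against 0.375 and 0.317 against 0.387). Hlth_1807 also had the highest neutrophil markers (3 of 4 genes, mean 8.38) and cholangiocyte markers (4 of 4 genes, 6.06) of the healthy group, and Hlth_1798 the highest Kupffer cell markers (8 of 8 genes, 9.65). Veh_low_794 had adipocyte markers at 6.39 (2 of 3 genes), with every other mouse at 4.45 or below. Where leaving out these 4 mice ended a call or moved a value the text turns on, the value without them is given beside it or with the other processing alternatives, some of these added after seeing the data. Directions of small differences that did not pass turned as well, and only some of these are given. In bulk tissue, fewer cells of a type and less RNA per cell cannot be told apart.

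Nnt was highest in the drug groups. In healthy mice its log2 intensity was 9.52 in Hlth_1798, 9.25 in Hlth_1804, 9.27 in Hlth_1965, 9.36 in Hlth_1968 and 9.71 in Hlth_1807. In vehicle mice without HCC it was 10.01 in Veh_low_1810, 9.99 in Veh_low_1825, 9.84 in Veh_low_2091, 9.14 in Veh_low_794 and 9.34 in Veh_low_1819. In vehicle mice with HCC it was 9.78 in Veh_high_798, 9.68 in Veh_high_1770, 9.81 in Veh_high_1831 and 9.80 in Veh_high_2088. The low vehicle mice are the same 2 that resemble the healthy group in overall profile, and the vehicle and healthy groups overlapped. In sulindac mice the lowest, median and highest Nnt values were 10.55, 10.65 and 10.87. In aspirin and clopidogrel mice it was 10.81 in AspClo_61, 10.65 in AspClo_64, 10.92 in AspClo_58, 10.66 in AspClo_63, 9.70 in AspClo_60 and 9.92 in AspClo_62. All 10 sulindac mice lay above all 9 vehicle mice, whereas the aspirin and clopidogrel group was split, with 4 mice in the sulindac range or just above it and 2 within the vehicle range. The same 2 mice, AspClo_60 and AspClo_62, were also the lowest of their group for the Kupffer cell and macrophage markers (7.74 and 8.37, the other 4 at 8.81 to 9.33, 8 of 8 genes). They were lowest for the endothelial markers (7.25 and 7.48 against 7.57 to 7.78, 5 of 5 genes) and the neutrophil markers (5.02 and 4.98 against 5.67 to 6.71, 3 of 4 genes) too. Other lists differed. The lowest mouse was AspClo_63 for the stellate cell markers (5.695), AspClo_58 for the lipid-associated macrophage markers (5.935) and AspClo_61 for the lymphocyte markers (4.494). The hepatocyte marker means of AspClo_60 and AspClo_62, 12.50 and 12.61, lay within or just below the 12.52 to 12.65 of the others. The part of these cell types in the Nnt split was not tested.

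**Figure D1:**
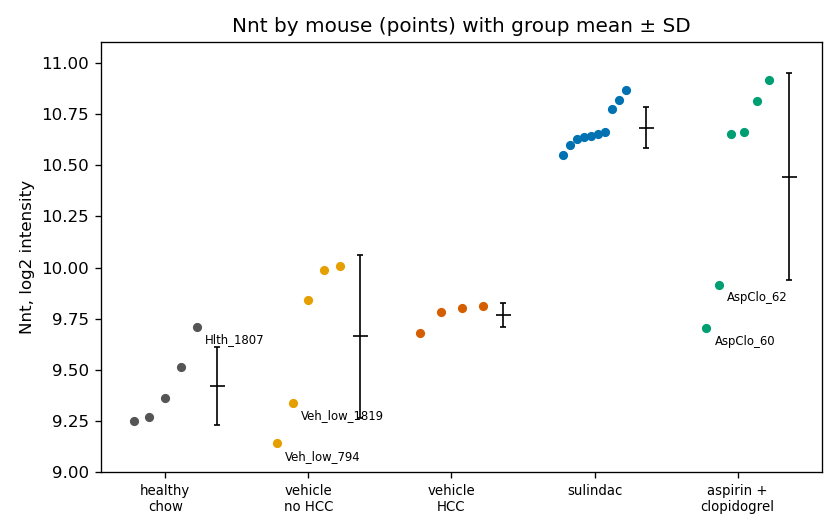
Log2 intensity of Nnt by mouse (vertical axis, 1 point per mouse) in the 5 groups (horizontal axis), sorted by value within a group, with the group mean and a bar of 1 SD beside the points. The 10 sulindac mice sit between 10.55 and 10.87, above every vehicle and healthy mouse, while 2 of the 6 aspirin and clopidogrel mice, AspClo_60 and AspClo_62, sit at 9.70 and 9.92.

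The means, with SD, were 9.42 ± 0.19 (n = 5) in healthy mice, 9.71 ± 0.29 (n = 9) in all vehicle mice, 10.68 ± 0.10 (n = 10) in sulindac mice and 10.44 ± 0.51 (n = 6) in aspirin and clopidogrel mice. The sulindac mean was 0.97 above vehicle on the log2 scale, a 1.96-fold difference (SE 0.13), and 1.26 above healthy, a 2.40-fold difference. Over all genes, 0.0351% had every sulindac mouse above every vehicle mouse, and since Nnt was chosen on this contrast nothing further is read from it. The aspirin and clopidogrel mean was 0.73 above vehicle (1.66-fold, SE 0.15), with 4 of 6 mice above all vehicle mice, and 0.24 below sulindac. Without the 4 mice that stand apart in overall profile, the sulindac and the aspirin and clopidogrel differences from vehicle were 0.84 and 0.60. These contrasts share the vehicle or healthy mice. The group order from low to high was healthy, vehicle without HCC, vehicle with HCC, aspirin and clopidogrel, then sulindac, and each pair of neighbours in this order overlapped.

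A second Nnt probe set gave nearly the same picture. Its differences were 0.94 for sulindac against vehicle, 0.68 for aspirin and clopidogrel against vehicle and 1.25 for sulindac against healthy, and it correlated with the first at r = 0.988 over the 30 mice, which share RNA and normalization. Vehicle against healthy gave 0.29 on the log2 scale (95% interval -0.03 to 0.61), which is a description because the vehicle values entered the choice of Nnt. HCC against no HCC within the vehicle mice gave 0.11 (interval -0.28 to 0.49), a description for the same reason. In both contrasts the groups overlapped, and without the 2 low vehicle mice the HCC difference turned to -0.18.

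Among the other members, Gpx4 alone passed the test in any of the 7 contrasts. Gpx4 is the selenium-dependent peroxidase that reduces lipid hydroperoxides in membranes and has a mitochondrial and a cytosolic form. Its log2 intensity under aspirin and clopidogrel was 11.18 in AspClo_61, 11.54 in AspClo_64, 11.14 in AspClo_58, 11.34 in AspClo_60, 11.62 in AspClo_62 and 11.16 in AspClo_63. In vehicle mice without HCC it was 11.99, 11.96, 11.71, 11.50 and 11.46 for Veh_low_1810, Veh_low_1825, Veh_low_2091, Veh_low_794 and Veh_low_1819. In vehicle mice with HCC it was 11.85, 11.88, 11.81 and 11.92 for Veh_high_798, Veh_high_1770, Veh_high_1831 and Veh_high_2088. Of the treated mice 4 of 6 lay below all 9 vehicle mice, and the low vehicle mice were again Veh_low_794 and Veh_low_1819.

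Gpx4 fell by 0.46 on the log2 scale with aspirin and clopidogrel against vehicle (11.33 ± 0.21 against 11.79 ± 0.19, SD, n = 6 and 9, a 1.37-fold difference, SE 0.11). The 95% interval was -0.68 to -0.24 and the limma adjusted p over all genes was 0.0235. In this contrast 1 of 8 tested members fell and 0 rose, while 1.96% of all genes passed in either direction and 0.977% fell. A second Gpx4 probe set gave -0.42. The call was lost when only the groups compared were fitted (adjusted p = 0.0505), when vehicle mice without HCC were the reference (-0.39, adjusted p = 0.108) and when AspClo_61, AspClo_58 or AspClo_63 was left out (adjusted p of 0.0758, 0.0754 and 0.0662). Without the 4 mice that stand apart the difference was -0.54 (limma adjusted p = 0.000399). The vehicle mice left out there, chosen by their measured profiles, were the lowest vehicle mice for Gpx4. The larger difference follows in part from that choice. Against healthy mice aspirin and clopidogrel gave -0.38 (limma adjusted p = 0.0982), and -0.15 (adjusted p = 0.515) without those 4 mice. Sulindac gave a Gpx4 difference of -0.18 against vehicle, with a median of 11.60 (range 11.40 to 11.84) and limma adjusted p = 0.497, and -0.27 (adjusted p = 0.083) without the 4 mice.

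Gpx4 is the only tested member that passed, so its promoter is shown for reference: 250 bases before to 50 after the start of one of its 4 RefSeq transcript starts (GRCm38.p6, chr10:80053315-80053614, plus strand). Capitals mark the letters CCAAT on either strand, a common promoter element:
Gpx4: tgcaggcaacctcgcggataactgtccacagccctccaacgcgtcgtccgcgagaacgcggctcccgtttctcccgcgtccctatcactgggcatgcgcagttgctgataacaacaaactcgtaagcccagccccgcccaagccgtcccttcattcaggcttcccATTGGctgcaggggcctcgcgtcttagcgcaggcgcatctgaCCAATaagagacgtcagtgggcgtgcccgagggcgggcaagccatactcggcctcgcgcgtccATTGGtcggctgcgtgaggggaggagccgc
This window holds 3 such matches. The 9 members with an entry include Prdx5 but not Nnt, so nothing is said of the Nnt promoter. CCAAT occurs in windows of 5 of these 9 genes, against 41.1% of 27025 RefSeq genes. It is in 8 of their 15 windows, some of which overlap, against 37.4% of 32851 RefSeq windows. The core letters TGACNNNGC of the antioxidant response element, searched on both strands, were in 0 of the 15 member windows and in 12.4% of all windows. Arrays measure RNA and say nothing of factor binding there.

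**Figure D2:**
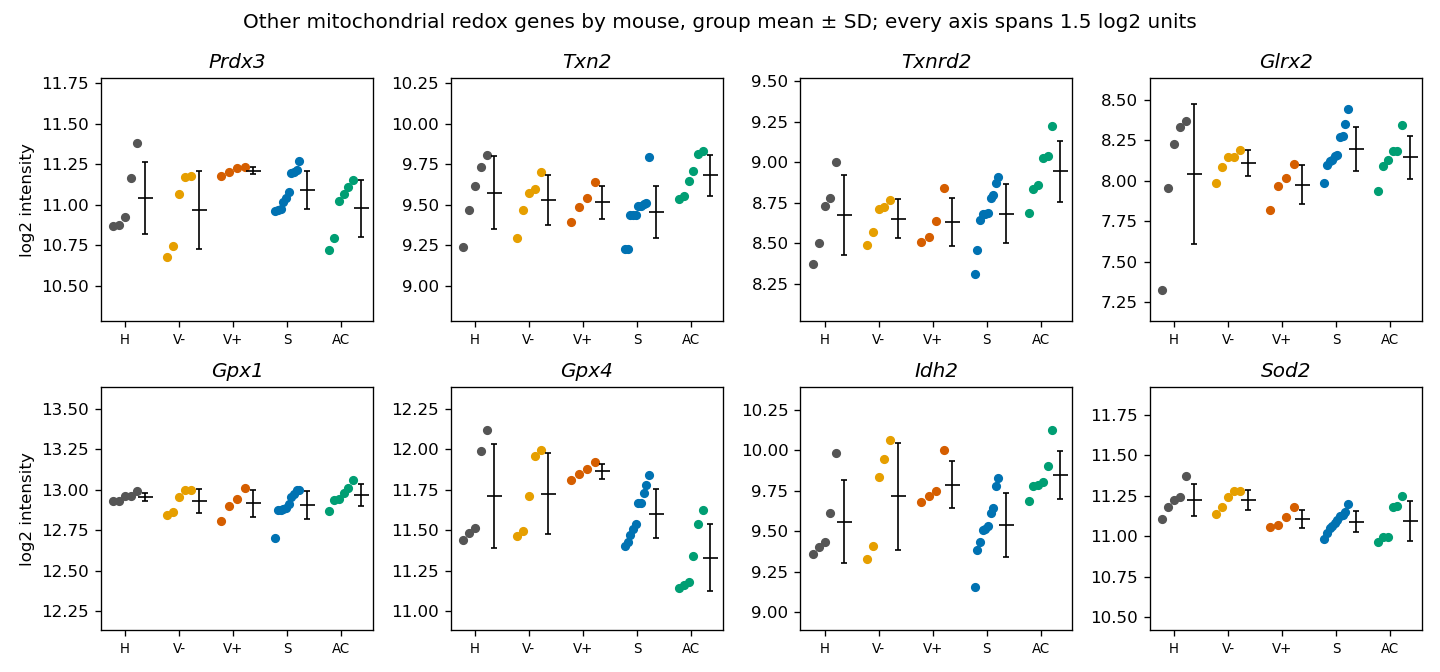
Log2 intensity by mouse for the 8 measured members other than Nnt (1 panel per gene, vertical axes of equal span), with groups labelled H for healthy chow, V- for vehicle without HCC, V+ for vehicle with HCC, S for sulindac and AC for aspirin and clopidogrel, and the group mean with a bar of 1 SD beside the points, which are sorted by value. For Gpx4, 4 of the 6 AC mice lie below all vehicle mice, and Gpx1 spans only 12.70 to 13.06.

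The thioredoxin pair did not pass in any contrast. Txnrd2, the NADPH-dependent reductase of mitochondrial thioredoxin, had 8.64 ± 0.12 (SD, n = 9) in vehicle mice and 8.95 ± 0.19 (n = 6) with aspirin and clopidogrel. The difference was 0.30 (limma adjusted p = 0.0941), with 4 of 6 treated mice above all vehicle mice. The 4 Txnrd2 probe sets were not of 1 direction in this contrast, at 0.30 (the one used), 0.22, -0.03 and 0.51. Txn2, mitochondrial thioredoxin itself, ran from 9.53 to 9.83 with a median of 9.68 under aspirin and clopidogrel, and from 9.23 to 9.80 with a median of 9.46 under sulindac. Aspirin and clopidogrel lay above sulindac by 0.22 for Txn2 (limma adjusted p = 0.227) and by 0.26 for Txnrd2 (limma adjusted p = 0.211), and the groups overlapped for both genes.

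Prdx3, the mitochondrial peroxiredoxin that thioredoxin recycles, was 11.20 in Veh_high_798, 11.23 in Veh_high_1770, 11.23 in Veh_high_1831 and 11.18 in Veh_high_2088. In vehicle mice without HCC it was 11.18, 11.17, 11.07, 10.74 and 10.68 for Veh_low_1810, Veh_low_1825, Veh_low_2091, Veh_low_794 and Veh_low_1819. The groups did not overlap, by a margin that rests on values of 11.18 in each, and 1.02% of all genes likewise had every HCC mouse higher. The difference was 0.24 (SE 0.11, limma p = 0.0362, adjusted p = 0.517), and 0.07 (adjusted p = 0.961) without Veh_low_794 and Veh_low_1819, the 2 lowest mice. In the other contrasts Prdx3 differed by -0.11 to 0.05 on the log2 scale.

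Idh2, which makes NADPH from isocitrate in the matrix, was 9.54 ± 0.20 (SD, n = 10) under sulindac and 9.85 ± 0.15 (n = 6) under aspirin and clopidogrel, 0.31 apart (limma adjusted p = 0.223). Its sulindac difference from vehicle was -0.21 (limma adjusted p = 0.453), and -0.32 (adjusted p = 0.0496) without the 4 mice that stand apart. A second Idh2 probe set has a mean of 4.54, below the median gene mean of 4.90, and its values are not used for Idh2. Sod2, the manganese superoxide dismutase that turns superoxide into hydrogen peroxide, was 11.09 ± 0.064 (SD, n = 10) under sulindac and 11.22 ± 0.098 (n = 5) in healthy mice. That difference of -0.14 had a limma adjusted p of 0.129. Glrx2, a mitochondrial glutaredoxin, spanned 7.32 to 8.44, the lowest value being Hlth_1807. Gpx1, a glutathione peroxidase of cytosol and mitochondria, varied least, at 12.70 to 13.06 with an SD of 0.073 over the 30 mice. These Gpx1 values lie near the top of the array range, whose maximum is 13.68.

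**Figure D3:**
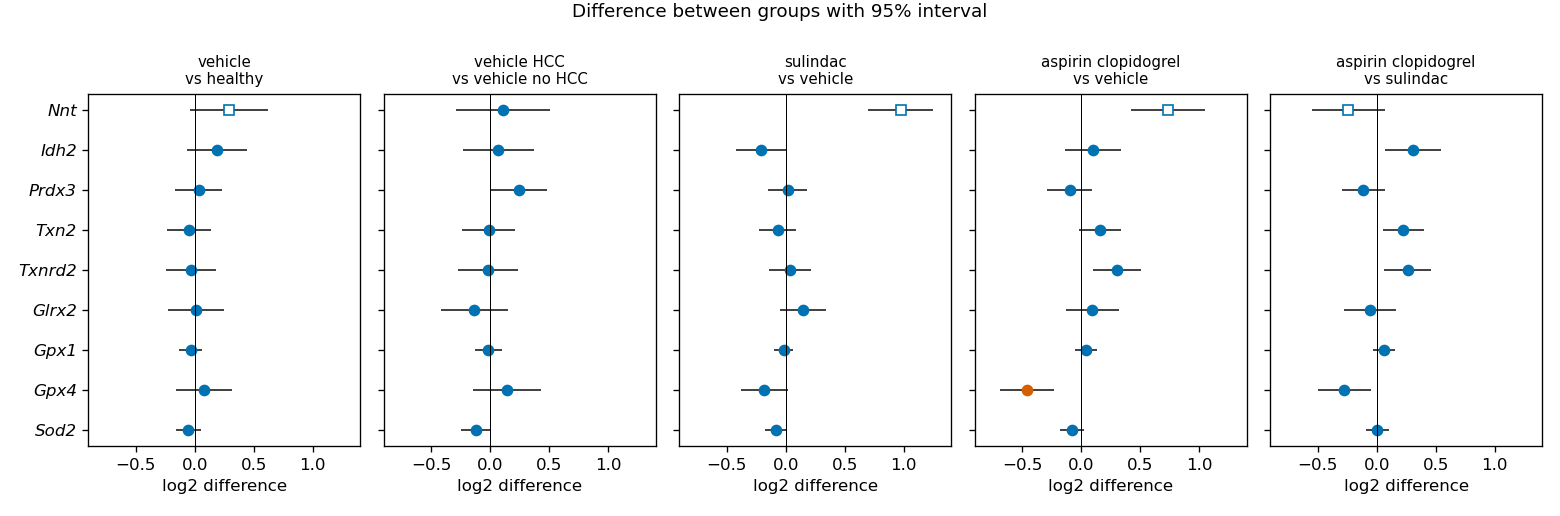
Log2 differences of each measured member (vertical axis) in 5 of the 7 contrasts, those of the drug groups with healthy mice not being drawn (1 panel per contrast, horizontal axis log2 difference, bars the 95% interval of the limma fit). Open squares mark Nnt in the contrasts with healthy or drug-treated mice, and orange an adjusted p under 0.05. Nnt is read without a test in every panel. Gpx4 with aspirin and clopidogrel against vehicle, at -0.46, is the only orange point.

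Counted over the 7 contrasts, the tested members passed 1 time. For vehicle against healthy, 0 of the 8 members other than Nnt passed in limma and 0 had an unadjusted p under 0.05, with 0.0117% of all genes called and 6.73% below an unadjusted p of 0.05. For HCC against no HCC, 0 of those 8 passed and 1, Prdx3, had an unadjusted p under 0.05, with 0.0877% of genes called and 8.87% below the unadjusted threshold. For sulindac against vehicle, 0 of 8 passed and 2, Idh2 and Sod2, had an unadjusted p under 0.05, with 0.199% called and 10.4% below the unadjusted threshold. For aspirin and clopidogrel against sulindac, 0 of 8 passed and 4 (Txn2, Txnrd2, Gpx4 and Idh2) were under the unadjusted threshold, with 0.877% called and 10.8% below it. For aspirin and clopidogrel against vehicle, 2 of the 8 (Gpx4 and Txnrd2) were under it, with 14.6% of all genes.

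Against healthy mice the drug groups gave 0 of 8 members in limma each, with 2.98% of genes called for sulindac and 2.77% for aspirin and clopidogrel. The members under an unadjusted p of 0.05 were 1 of 8 and 4 of 8, with 14.8% of all genes in each. These 2 contrasts share the healthy mice, and the contrasts with vehicle share the vehicle mice. The median difference of the tested members was -0.04 for sulindac against vehicle and 0.07 for aspirin and clopidogrel against vehicle, beside medians of 0.01 and 0.00 over all genes.

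The diet contrast turned on 4 mice. With Hlth_1798, Hlth_1807, Veh_low_794 and Veh_low_1819 left out, 5.61% of all genes passed (959, against 2 in the full data), so the whole array moved with this selection. Of the 8 members other than Nnt, 4 passed: Prdx3 at 0.29 (limma adjusted p = 0.035), Gpx4 at 0.40 (0.0213) and Idh2 at 0.46 (0.0121) higher in vehicle, and Glrx2 at -0.29 (0.0409) lower. Nnt then differed by 0.55, from 9.25 to 9.36 in 3 healthy mice to 9.68 to 10.01 in 7 vehicle mice. These mice were left out because of their measured profiles, so the change follows in part from that choice.

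Across the 30 mice, after group means were removed, Prdx3 and Idh2 followed Nnt most closely among the members, with r of 0.718 and 0.609, and the others lay between -0.249 and 0.332. This is a description over mice that share groups and normalization, with no p. Among the 8548 genes at or above the median level, Wdfy1 had the highest correlation with Nnt over all 30 mice (r = 0.915), followed by Sft2d1 (0.859), the haemoglobin gene Hba-a1 (0.857), Srp54a (0.848), the haemoglobin gene Hbb-b2 (0.842) and Copg2 (0.821). The lowest were Csad (-0.849), Dnase2a (-0.827), Pisd-ps3 (-0.812) and Map1lc3a (-0.787). The haemoglobin genes have close copies whose probes can share signal. Since Nnt falls into separate clusters of mice, these r values only rank genes.

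Wdfy1 was named for its r with Nnt over all 30 mice, the aspirin and clopidogrel mice included. A likeness to Nnt within that group therefore follows in part from this choice. Among those mice Wdfy1 was 7.85 in AspClo_61, 7.63 in AspClo_64 and 7.62 in AspClo_58, against 6.45 in AspClo_63, 6.32 in AspClo_62 and 5.04 in AspClo_60. Sulindac mice ran from 7.50 to 8.04, and all healthy and vehicle mice from 4.80 to 5.70. AspClo_60 and AspClo_62 were the lowest of their group for both genes, while AspClo_63 was high for Nnt and intermediate for Wdfy1. AspClo_62, within the vehicle range for Nnt, lay above every vehicle mouse for Wdfy1. The 4 Wdfy1 probe sets differed in size for sulindac against vehicle, at 2.50, 1.58, 1.69 and 0.30. Wdfy1 lies on chromosome 1 and Nnt on chromosome 13.

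**Figure D4:**
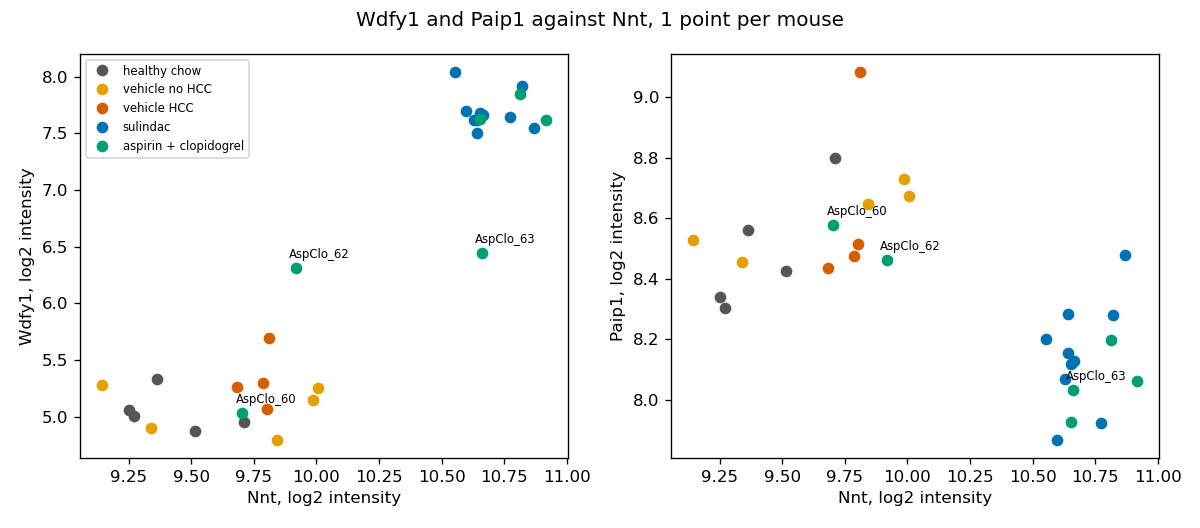
Log2 intensity of Wdfy1 and of Paip1 (vertical axes) against Nnt (horizontal axes), 1 point per mouse coloured by group. AspClo_60 and AspClo_62 have the lowest Nnt and Wdfy1 of their group, with Wdfy1 at 5.04 and 6.32 and Paip1 at 8.58 and 8.46.

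The erythroid list, which holds the haemoglobin genes above, had a mean of 8.75 to 9.52 in vehicle mice, 9.24 to 9.75 with aspirin and clopidogrel, 9.56 to 9.80 with sulindac and 8.62 to 9.11 in healthy mice (4 of 5 genes). Across the groups it ran in nearly the order of Nnt, but within the aspirin and clopidogrel group it did not: the low-Nnt mice AspClo_60 and AspClo_62 had 9.62 and 9.75, and the high-Nnt mice AspClo_61, AspClo_58, AspClo_63 and AspClo_64 had 9.25, 9.34, 9.24 and 9.70. The list mean hides members that differ. With aspirin and clopidogrel against vehicle, Hba-a1 and Hbb-b2 passed higher and Alas2 lower in limma, where 1.96% of all genes passed. In this contrast the 3 Hbb-b2 probe sets gave 1.14 (the one used), 0.113 and 0.244, and the 3 of Hba-a1 gave 1.21, 0.951 and 1.55. Within the aspirin and clopidogrel group the haemoglobin genes went with Nnt, at r = 0.669 for Hba-a1 and 0.557 for Hbb-b2. Both were named for their r with Nnt over all mice. The part of the erythroid list in the Nnt values was not tested.

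The genes next to Nnt on chromosome 13 were examined by position alone: Emb, Mrps30, 1700003P14Rik and Fgf10 on one side, and Paip1, 4833420G17Rik, Ccl28 and Hmgcs1 on the other. Paip1, whose product binds poly(A)-binding protein in translation, fell by 0.47 with sulindac against vehicle (limma adjusted p = 0.0253, 9 of 10 mice below all vehicle mice) and by 0.41 with aspirin and clopidogrel (limma adjusted p = 0.0441, 4 of 6 below). The direction is opposite to that of Nnt. The 3 Paip1 probe sets gave -0.47, -0.07 and -0.38 for sulindac against vehicle. For aspirin and clopidogrel against vehicle they gave -0.405, -0.007 and -0.244. Over all genes, 0.199% passed in the first of these contrasts and 1.96% in the second. In aspirin and clopidogrel mice Paip1 was highest in AspClo_60 (8.58) and AspClo_62 (8.46), against 7.93 to 8.20 in the other 4. None of the other 7 neighbours passed in any of the 7 contrasts.

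Other genes of the pathway were taken from lists chosen by function. Of the mitochondrial NADPH sources, 7 of 9 were measured. Mthfd2l, a mitochondrial folate enzyme that makes NADPH, was the only tested one to pass. It fell by 0.31 with aspirin and clopidogrel against sulindac (limma adjusted p = 0.0246), where 0.877% of all genes passed. With sulindac against healthy it rose by 0.26 (limma adjusted p = 0.0467), where 2.98% of all genes passed. That rise was 0.20 (limma adjusted p = 0.149) without the 4 mice that stand apart. Of the other mitochondrial thiol and peroxide genes, 12 of 13 were measured. With aspirin and clopidogrel against vehicle 2 of these 12 fell and 0 rose, beside 0.977% of all genes lower and 1.96% in either direction. Glrx5, a glutaredoxin of iron-sulfur cluster assembly, fell by 0.26 (limma adjusted p = 0.0441). Slc25a39, a mitochondrial glutathione carrier, fell by 0.11 (limma adjusted p = 0.0349). The median of that list was -0.12 in this contrast, against 0.00 over all genes.

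With sulindac against healthy, Msrb2, which repairs oxidised methionine, rose by 0.71 (limma adjusted p = 0.00339) and Slc25a40, a related carrier, rose by 0.33 (limma adjusted p = 0.0134). Among 13 measured counterparts that act mainly outside the mitochondria, Prdx4 rose with sulindac (0.28, limma adjusted p = 0.0327) and with aspirin and clopidogrel (0.26, limma adjusted p = 0.0397) against vehicle. Among 9 cytosolic NADPH sources, Tkt, transketolase of the pentose phosphate pathway, fell with aspirin and clopidogrel by 0.33 against vehicle (limma adjusted p = 0.0228) and by 0.40 against healthy (limma adjusted p = 0.0116), while Mthfd1 rose by 0.38 against healthy (limma adjusted p = 0.0452). Without the 4 mice the calls against healthy were lost for Tkt (-0.30, limma adjusted p = 0.076) and Mthfd1 (0.19, limma adjusted p = 0.359). Over these lists and Paip1, 14 of the 17 calls held, while calls over all genes rose, from 335 to 819 for aspirin and clopidogrel against vehicle. The Mthfd2l difference between the drug groups involves none of those mice and could not move. Over all genes, 0.199% passed for sulindac and 1.96% for aspirin and clopidogrel against vehicle, and 2.98% and 2.77% against healthy.

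Genes that mark the amount of mitochondria did not pass in any contrast. Of 16 mitochondrial content genes, such as Cs and Vdac1, 0 passed in limma in all 7 contrasts. In each, 0 to 3 had an unadjusted limma p under 0.05, beside 6.73% to 14.8% of all genes. Their median difference was 0.02 for sulindac against vehicle and 0.00 for aspirin and clopidogrel against vehicle, beside 0.01 and 0.00 over all genes. Among 8 measured mitochondrial chaperones and proteases, Dnaja3 fell with sulindac (-0.32, limma adjusted p = 0.00567) and with aspirin and clopidogrel (-0.30, limma adjusted p = 0.0166) against healthy. In these contrasts 2.98% and 2.77% of all genes passed.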

How the data were processed

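RNA from 20 mg of non-tumour liver of 30 mice was hybridised to Affymetrix HT MG-430 PM arrays, 1 per mouse. Each deposited value is a linear intensity for 1 probe set, which the authors made with RMA and quantile normalization, per the series design text. No source used here gives the RMA version. Log2 of the deposited intensity was taken here. Gene names came from the platform annotation: of 45141 probe sets, 28898 had 1 gene symbol, 551 several and 15588 none, and per gene the probe set with the highest mean was used (17097 genes). The 5 group means were fitted in limma 3.58.1 with R 4.3.3 over all arrays and genes, with p-values adjusted by Benjamini-Hochberg within each contrast and a threshold of 0.05. The script was tested on simulated data. Arrays give no read depth; their number limits the precision. The design text counts 4 vehicle mice and the labels 9; the labels were used. The members and gene lists were chosen with earlier results of these data known. Named genes are the members, up to 3 genes of each list by smallest p, the 6 and 4 genes most and least like Nnt, and its 8 neighbours. Alternatives changed the samples fitted, probe set rule, filter, log offset, scaling, weights, variance prior and reference, and left out each mouse. Promoter windows are from RefSeq, 250 bases before to 50 after each start (GRCm38.p6).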

Additional observations from a re-analysis of the deposited data

Results flagged for a closer look

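Among 45 sets of 1 member in 1 group tested for a mouse far from the others, 2 stood out, where chance flags about 1 in 20. Txn2 was 9.80 in Sulin_16, against 9.51 in the next highest sulindac mouse. Gpx1 was 12.704 in Sulin_17, against 12.872 in the next lowest, and this mouse also had the highest muscle markers of its group (7.13).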

How the results depend on the processing

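For aspirin and clopidogrel against vehicle, 1 member passed (Gpx4), with 335 of all genes. With the groups compared fitted alone 0 passed (111 of all genes), with vehicle mice without HCC as the reference 0 (224), with array weights 2 (Txnrd2 added; 613) and without the 4 mice nearer the other group 2 (Txnrd2 at 0.33, adjusted p = 0.0354; 819). Leaving out each mouse gave 0 to 1. For vehicle against healthy the count was 0 (2 of all genes), and 4 without those mice (959). For sulindac against vehicle it was 0 (34), and 1 without them (Idh2 at -0.32, adjusted p = 0.0496, with 143). For aspirin and clopidogrel against sulindac it was 0 (150), and 1 without them (Idh2 at 0.31, adjusted p = 0.0458, with 343). For sulindac against healthy it was 0 (510), 1 with array weights (Sod2 at -0.17, with 1614) and 1 without them (Sod2 at -0.19, with 1327). For aspirin and clopidogrel against healthy it was 0 (473), 2 with array weights (Idh2 at 0.41, Sod2 at -0.17, with 1220), 1 without them (Idh2 at 0.45, with 928) and 0 to 1 when each mouse was left out, Gpx4 passing without AspClo_62 (adjusted p = 0.0418). Where the count of members rose, so did that over all genes (in brackets), and the cause was not tested.

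Directions that turned were all of member differences that did not pass, or carried no test, in the full data. Those listed come from vehicle against healthy, from Nnt and from differences with an unadjusted limma p under 0.05. Others turned too without the 4 mice. Gpx4 for sulindac against healthy went from -0.11 to 0.13, and Prdx3 for sulindac against vehicle from 0.02 to -0.09, among others. For vehicle against healthy, Glrx2 was -0.17 with array weights and -0.29 without the 4 mice, and Gpx1 was 0.00299 without them. The Nnt difference between HCC and no HCC was -0.18 without Veh_low_794 and Veh_low_1819. Leaving out each mouse moved the diet difference of Prdx3 from -0.0097 to 0.117, of Txn2 from -0.134 to 0.0078, of Txnrd2 from -0.111 to 0.0473 and of Glrx2 from -0.17 to 0.0922, and the Nnt HCC difference from -0.0242 to 0.192. The number of mice limits the precision. No paired analysis was possible because the groups share no animal numbers.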
